A study of Mus musculus with 8 samples.

Results

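The genes described here are Atg12 and the other genes of the conjugation system that it works in, namely Atg5, Atg7, Atg10, Atg3, Atg16l1 and Atg16l2. They were taken by symbol from the deposited expression table, in which 7 of 7 were found among 24213 named genes. Each of the 7 was represented by 1 feature, a set of probes.

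Autophagy encloses part of the cytoplasm in a membrane vesicle, the autophagosome, and delivers it to the lysosome. Atg12 is a ubiquitin-like protein. Atg7 activates it as an E1-like enzyme, Atg10 carries it as an E2-like enzyme, and it is then joined covalently to Atg5. The Atg12-Atg5 conjugate binds Atg16l1 and acts as an E3-like enzyme, which helps Atg3 to attach LC3 and its relatives, the Atg8 family, to a lipid of the growing membrane. Blood stem cells use autophagy to remove mitochondria and to survive metabolic stress.

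Hematopoietic stem cells (HSCs), as the labels name the cells, came from the bone marrow of C57BL/6 mice aged 3 to 4 months. Of the 8 mice, 4 were conditional knockouts with floxed Atg12 on both chromosomes and the Mx1-Cre transgene, in which an interferon-responsive promoter drives the recombinase Cre. The other 4 were controls with the same floxed alleles and no Cre. At an age of 4 weeks, mice of both groups had received poly(I:C), a synthetic RNA that triggers interferon, and cells were sorted 2 to 3 months later for c-Kit, Sca-1 and CD150 and against lineage markers, Flk2 and CD48. Per the series' design each array carries amplified RNA from an individual mouse. Signals are on the log2 scale after RMA, a method that corrects background and brings arrays to a like distribution. Because Cre was present only in the knockouts, an effect of Cre and an effect of Atg12 loss cannot be told apart. The floxed exons and the position of the Atg12 probes are not given in the sources used here, so signal from a transcript that lacks the floxed part was not measured separately.

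Several properties of the arrays bear on the values below. Correlations between pairs of arrays lay between 0.986 and 0.993, and knockout 3 stood apart on the first principal component, at -39.5 against -12.2 to 14.8 for the other 7 arrays. Xist was high on knockouts 1, 2 and 4 and on control 4, whereas Y-linked genes were high on knockouts 3 and 4 and on controls 1, 2 and 3, so that sex was unevenly spread over the groups. Knockout 4 carried both signals, which a single male or female mouse would not give, and whether it holds RNA of more than 1 mouse was not tested. Sex-linked transcripts read 1.64 to 3.20 on the arrays that should lack them, and this range serves as the level of absent transcripts. Of 9 genes of HSCs and the sort gate, 7 had a mean above it. Of these 7, Kit (8.36 to 8.70) and Cd34 (9.09 to 9.71) read highest, and Procr and Fgd5 exceeded the range on 6 of 8 arrays each. Ly6a, which encodes Sca-1, read 3.55 to 5.02. Mecom was above the range on 1 of 8 arrays, and Slamf1, which encodes CD150, lay inside it on 8 of 8 arrays (2.22 to 2.98). Cd48 read 8.53 to 8.69 and Flt3, which encodes Flk2, read 4.78 to 5.61, although the gate excludes both proteins. The mean of 4 myeloid progenitor genes (Mpo, Elane, Ctsg and Prtn3) lay at 11.7 to 11.8 on knockout arrays and at 11.7 to 11.8 on control arrays. At the RNA level Slamf1, Cd48 and Flt3 thus went against the sort gate, and the myeloid progenitor genes read above Kit and Cd34. The name HSC is that of the labels, and the identity of the cells was not tested. Genes of other cells had a mean above that range for 2 of 3 in the mature myeloid list and 3 of 3 in the T and NK cell list. In the latter, Nkg7 read 10.7 to 10.9, whereas Cd3e (3.54 to 4.42) and Cd8a (3.24 to 3.65) lay near the range. The count was 1 of 3 in the erythroid list, 3 of 3 in the megakaryocyte list and 0 of 3 in the B cell list. The mean of the 3 megakaryocyte genes was 4.15 to 4.75 on knockout arrays and 4.88 to 5.40 on control arrays. All knockouts thus lay below all controls for this list mean. Of single genes 1.54% showed that pattern, and no such share was taken for means of lists. Within this list Pf4 differed by -1.40, Itga2b by -0.32 and Gp9 by -0.06. None of the 3 passed the test (limma adjusted p 0.991 to 0.99964). Pf4 spread from 2.85 to 6.26 and was above the level of absent transcripts on 7 of 8 arrays. The list mean lay at 5.85 to 6.24 on knockout and 6.06 to 6.17 on control arrays for T and NK cells, at 4.85 to 5.18 on knockout and 4.74 to 5.02 on control arrays for mature myeloid cells, and at 2.88 to 3.21 on knockout and 3.00 to 3.29 on control arrays for erythroid cells. The part of other cells in the values of the conjugation system was not tested.

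Atg12 fell in the knockouts, and it was the 1 member of the 7 to pass the test across all genes. Its log2 signal was 5.66, 5.45, 5.35 and 5.56 on knockout arrays 1 to 4, against 6.41, 6.37, 6.55 and 6.42 on control arrays 1 to 4. All 4 knockout arrays lay below all 4 control arrays, with a gap wider than the spread inside either group. The mean was 5.50 ± 0.13 in knockouts and 6.44 ± 0.08 in controls (SD, n = 4 arrays each), a log2 difference of -0.93 (SE 0.10, 95% confidence interval -1.15 to -0.72). On the linear scale the knockout signal was 52.4% of the control signal, with an interval of 0.452 to 0.608 times control. In RNA from many cells, a smaller share of cells with the transcript and less transcript per cell cannot be told apart.

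The adjusted p for Atg12 was 0.031 by limma with Benjamini-Hochberg adjustment over 24213 genes, and Atg12 ranked 1 by p. A gene passed in 0.00413% of all genes tested, which is this 1 gene. The two-sided exact permutation test over 70 assignments of arrays gave p = 0.0286, the smallest value it can give. The adjusted p exceeded the threshold of 0.05 whenever 1 array was left out (0.0542 without control 4 to 0.226 without control 3), while the difference stayed between -0.98 and -0.88. Without knockout 4 it was -0.95 (adjusted p 0.169). It also exceeded the threshold with Xist signal as a covariate (0.162) or Y-linked signal as a covariate (0.112), where the difference was -0.97 and -0.94. Between the 1 knockout and 3 controls that had only Y-linked signal the difference was -1.09, and between the 2 knockouts and 1 control that had only Xist signal it was -0.87.

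**Figure D1:**
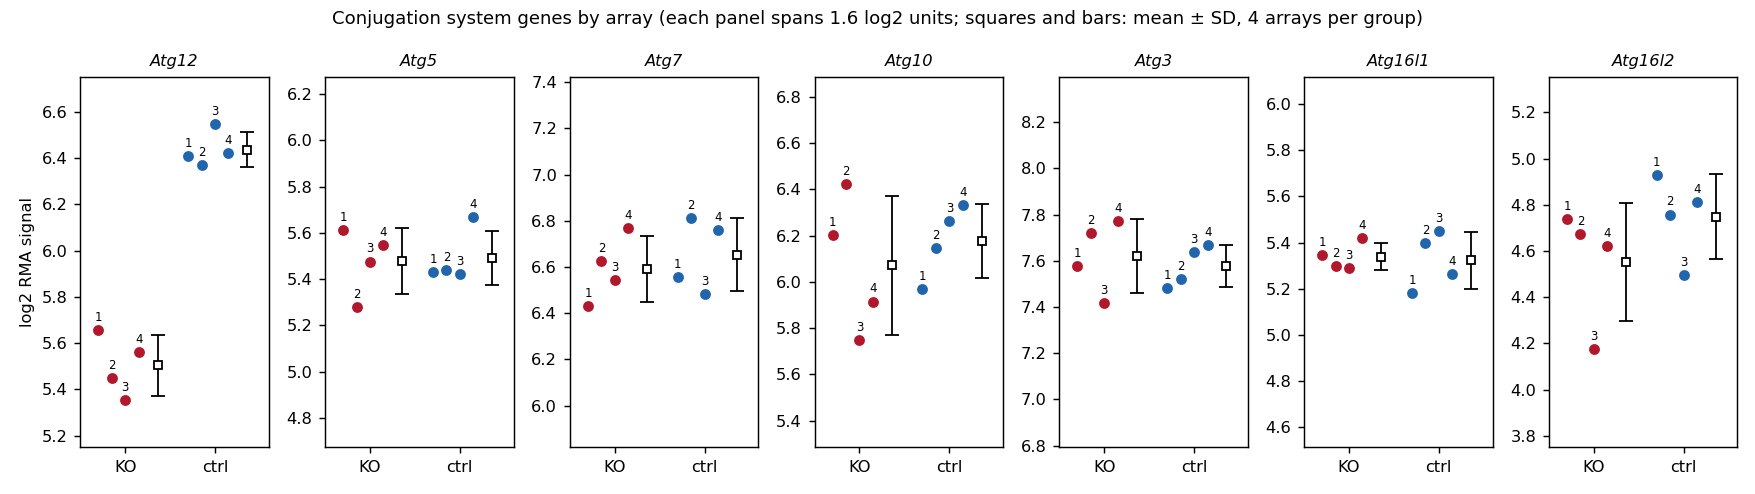
Log2 RMA signal (vertical axis, 1 panel per gene, each spanning the same number of log2 units) of the conjugation system genes on knockout (KO, red) and control (ctrl, blue) arrays, with the array number above each point and the mean ± SD of 4 arrays as a square with bars. Atg12 is at 5.35 to 5.66 on knockout arrays and 6.37 to 6.55 on control arrays, and in the other 6 panels the groups overlap.

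Atg5, the protein that Atg12 is joined to, did not follow Atg12. Its signal was 5.61, 5.28, 5.48 and 5.55 on knockout arrays 1 to 4, against 5.43, 5.44, 5.42 and 5.67 on control arrays 1 to 4. The groups overlapped, with the lowest array in the knockouts and the highest, control 4, in the controls. The means were 5.48 ± 0.14 in knockouts and 5.49 ± 0.12 in controls (SD, n = 4 each), and the log2 difference of -0.012 (SE 0.10) had a 95% interval of -0.24 to 0.22. The difference of Atg12 lies outside this interval.

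Atg7, the E1-like enzyme that serves both Atg12 and the Atg8 family, read 6.43, 6.62, 6.54 and 6.77 on knockout arrays 1 to 4, against 6.56, 6.81, 6.48 and 6.76 on control arrays 1 to 4. The highest and the second lowest array were both controls, and the groups overlapped over nearly their whole range. The log2 difference was -0.06 (SE 0.11, 95% interval -0.31 to 0.18).

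The E2-like enzymes are Atg10, which hands Atg12 to Atg5, and Atg3, which hands the Atg8 proteins to lipid. Atg10 read 6.20, 6.42, 5.75 and 5.92 on knockout arrays 1 to 4, against 5.97, 6.15, 6.26 and 6.33 on control arrays 1 to 4. The knockouts held both the highest array, knockout 2, and the lowest, knockout 3, so that their SD of 0.30 exceeded the 0.16 of the controls. The log2 difference of Atg10 was -0.11 (SE 0.15, 95% interval -0.43 to 0.22), and it was 0.0025 without knockout 3. Atg3 read 7.58, 7.72, 7.42 and 7.77 on knockout arrays 1 to 4, against 7.48, 7.52, 7.64 and 7.67 on control arrays 1 to 4. Here too the knockouts held the highest and the lowest array. The log2 difference of Atg3 was 0.04 (SE 0.10, 95% interval -0.19 to 0.27).

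Atg16l1 places the Atg12-Atg5 conjugate on the membrane, and Atg16l2 is its paralog, which also binds Atg5. Atg16l1 had the smallest spread over arrays of the 7 genes (SD 0.09 over 8 arrays). It read 5.35, 5.30, 5.29 and 5.42 on knockout arrays 1 to 4, against 5.18, 5.40, 5.45 and 5.26 on control arrays 1 to 4. All 4 knockout arrays lay inside the range of the controls, and the log2 difference was 0.02 (SE 0.09, 95% interval -0.19 to 0.22). Atg16l2 read 4.74, 4.67, 4.18 and 4.62 on knockout arrays 1 to 4, against 4.93, 4.76, 4.50 and 4.81 on control arrays 1 to 4. Among the 6 genes other than Atg12 it had the difference farthest from 0, at -0.20 (SE 0.14, 95% interval -0.51 to 0.11). Control 3 lay below 3 of the 4 knockouts, and without knockout 3 the difference was -0.07.

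None of these 6 genes passed the test (limma adjusted p 0.99964 for each), and none had an unadjusted p under 0.05, a level that 4.94% of all genes reached. Missing the threshold does not show that the genes were equal in both groups. The 95% intervals of the 6 genes ran from 0.703 times the control signal (Atg16l2) to 1.21 times (Atg3). Groups that did not overlap, with knockouts below controls, were seen for 1 of the 7 genes, Atg12, against 1.54% of all genes. The median log2 difference of the 6 genes was -0.04, and that of all 24213 genes was 0.0017.

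Relative to the mean of the other 6 genes on the same array, a quantity that a shift of the whole array leaves as it is, Atg12 stood at -0.33, -0.56, -0.42 and -0.45 on knockout arrays 1 to 4, against 0.49, 0.36, 0.59 and 0.34 on control arrays 1 to 4. All knockouts were below 0 and all controls above it. The mean was -0.44 ± 0.09 in knockouts and 0.44 ± 0.12 in controls (SD, n = 4 each). The difference of -0.88 stayed between -0.92 and -0.83 when single arrays were left out. Levels of different probe sets have no common scale, so the difference between groups is to be read and not the sign of a single value. Without Atg12, the mean of the 6 genes was 5.94 ± 0.11 in knockouts and 6.00 ± 0.07 in controls.

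**Figure D2:**
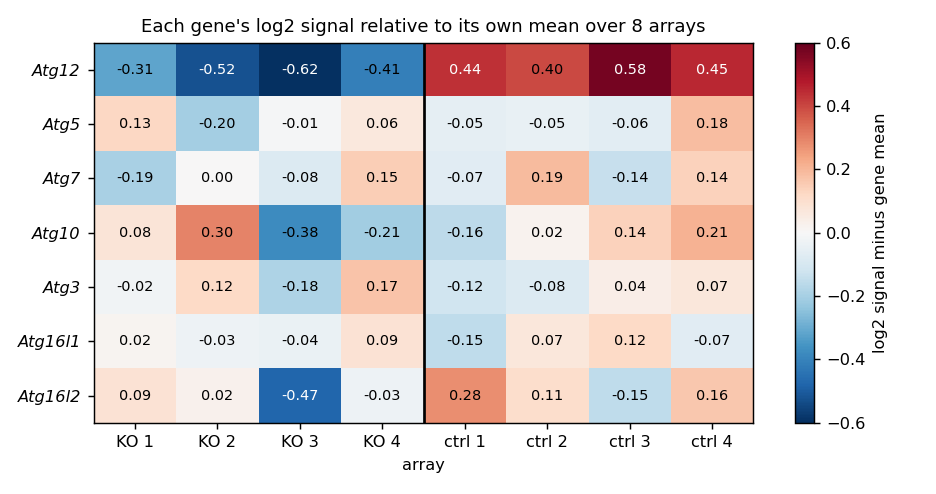
Log2 signal of each conjugation system gene (rows) on each array (columns, knockouts KO left of the line and controls right) minus the mean of that gene over 8 arrays, with the value written in each cell. The Atg12 row is below 0 on all knockouts and above 0 on all controls, and the knockout 3 column has the lowest value of its row for Atg12, Atg10, Atg3 and Atg16l2.

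Apart from Atg12, the genes varied from array to array more than between genotypes. Their SD over 8 arrays lay between 0.09 (Atg16l1) and 0.23 (Atg16l2 and Atg10), against 0.51 for Atg12 and a median of 0.18 over all genes. An SD above that of Atg12 was found in 0.69% of all genes. Knockout 3 was the lowest of the 8 arrays for 4 of the 7 genes, Atg12, Atg10, Atg3 and Atg16l2. It was also the lowest array for 19.1% of all genes and for 26.9% of the 14697 genes whose mean lay above the level of absent transcripts. Without knockout 3 the difference of Atg12 was -0.88 (limma adjusted p = 0.0928).

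The Atg8 family are the proteins that the conjugation system attaches to lipid, and the Atg4 proteases prepare them and release them again. Of the 9 genes, 0 passed the test in either direction (limma; 0 also had an unadjusted p under 0.05). The difference was below 0 for 8 and above 0 for 1, Map1lc3b, whereas 11953 of all 24213 genes were below 0. Their median was -0.02 against 0.0017 over all genes. Map1lc3a, Map1lc3b, Gabarapl1, Gabarapl2, Atg4a, Atg4c and Atg4d changed sign in at least 1 alternative processing, described below. Map1lc3b, which encodes LC3B, averaged 8.16 ± 0.08 in knockouts and 8.14 ± 0.11 in controls (log2 difference 0.02, SE 0.09). Gabarap averaged 9.45 ± 0.09 in knockouts and 9.50 ± 0.07 in controls (-0.05, SE 0.09). Map1lc3a differed by -0.0082 and Gabarapl1 by -0.02, each with an interval that covers 0.

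Gabarapl2 was measured by a pair of features that disagreed in sign. The one with the higher signal differed by -0.09 and the other by 0.12. Among the proteases, Atg4b had the difference farthest from 0. It read 5.18, 5.50, 5.17 and 4.98 on knockout arrays 1 to 4, against 5.38, 5.38, 5.58 and 5.37 on control arrays 1 to 4. Knockouts 1, 3 and 4 lay below all controls and knockout 2 inside their range, and the log2 difference was -0.22 (SE 0.12, 95% interval -0.48 to 0.04). Atg4c differed by -0.12 (SE 0.20), Atg4a by -0.02 and Atg4d by -0.01, and their groups overlapped.

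The proteins known to bind the complex were read from a second list of 9 genes. Of these, 0 passed the test in either direction (limma; 0 had an unadjusted p under 0.05). The difference was above 0 for 6 and below 0 for 3, whereas 12260 of all 24213 genes were above 0, and the median was 0.10. Wipi2, which brings Atg16l1 to the membrane, averaged 6.11 ± 0.17 in knockouts and 6.25 ± 0.10 in controls (log2 difference -0.15, SE 0.11). Rb1cc1, the Fip200 subunit of the kinase complex that starts autophagy and a binder of Atg16l1, differed by -0.09 (SE 0.12). Tecpr1, a lysosomal protein that binds the Atg12-Atg5 conjugate, had the smallest unadjusted p of the list, 0.051. It read 3.81, 3.86, 3.76 and 3.95 on knockout arrays 1 to 4, against 3.57, 3.52, 3.78 and 3.69 on control arrays 1 to 4. These signals lay near the level of absent transcripts. The groups overlapped at knockout 3 and control 3, and the log2 difference was 0.21 (SE 0.09, 95% interval -0.0011 to 0.41).

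Fadd, a death receptor adaptor that binds Atg5, averaged 6.63 ± 0.17 in knockouts and 6.41 ± 0.08 in controls (log2 difference 0.22, SE 0.11), and knockout 4 lay below control 1. Rab33b, a small GTPase that binds Atg16l1, differed by 0.07 (SE 0.14), the transmembrane protein gene Tmem59 by 0.10 (SE 0.10) and Nod2, a sensor of bacterial cell wall, by 0.12 (SE 0.09). The 95% interval of each of these covered 0, and Nod2 read near the level of absent transcripts (3.38 to 3.64). The antiviral sensor Ddx58 (RIG-I) differed by 0.24 (SE 0.22) and its adaptor Mavs by -0.15 (SE 0.12), and the Atg12-Atg5 conjugate is known to bind both. Ddx58 is also induced by interferon, its control arrays spread from 3.99 to 5.01, and without control 1 its difference was 0.018.

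**Figure D3:**
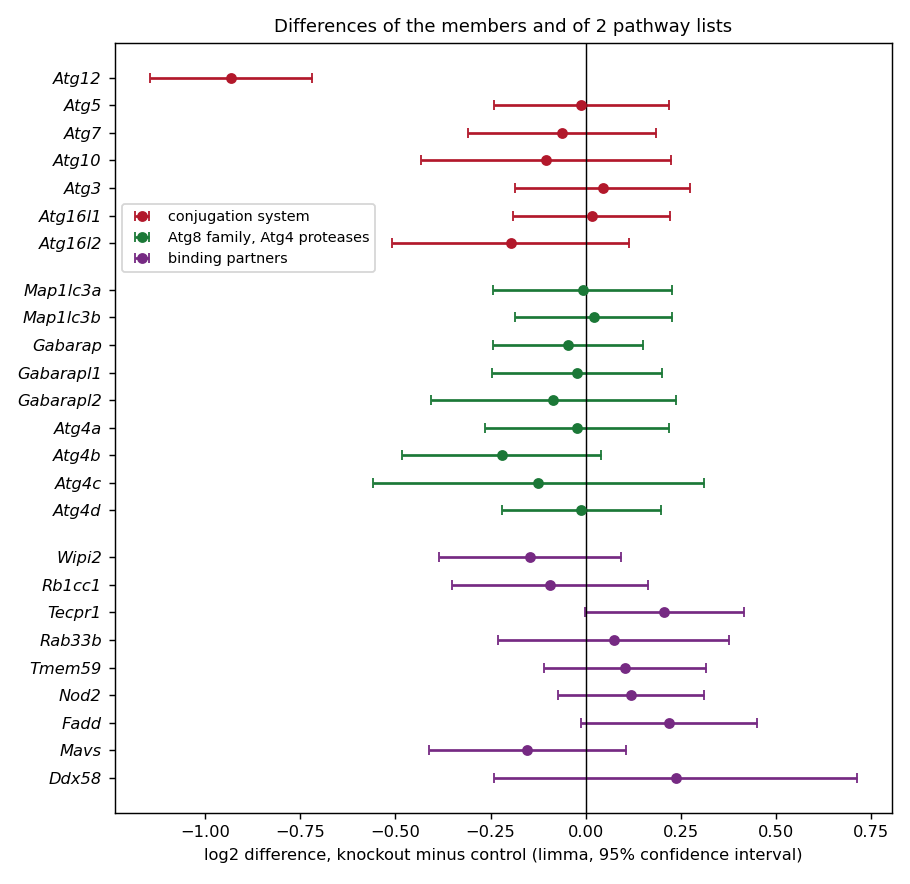
Log2 difference, knockout minus control (horizontal axis), with the 95% confidence interval of the limma fit over 8 arrays, for the conjugation system (red), the Atg8 family and Atg4 proteases (green) and the binding partners (purple). Only the interval of Atg12, at -1.15 to -0.72, leaves out 0.

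The genes that flank Atg12 were read to see how far along the chromosome the difference reached. In the RefSeq gene table of the mouse assembly GRCm38.p6, the nearest measured protein-coding genes are Cdo1, Eif1a and Tmed7 on one side and Ap3s1, 4833403I15Rik (named Lvrn in RefSeq) and Arl14epl on the other. Of these 6 genes, 0 passed the test in either direction (limma), and 1 had an unadjusted p under 0.05. That gene was Cdo1, the direct neighbour of Atg12, which encodes cysteine dioxygenase, the enzyme that begins the breakdown of cysteine.

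Cdo1 read 7.87, 7.78, 7.78 and 8.01 on knockout arrays 1 to 4, against 6.44, 6.77, 4.15 and 5.02 on control arrays 1 to 4. The knockouts lay close together and above all controls, a pattern found in 1.36% of all genes, whereas the controls spread widely (SD 0.11 in knockouts and 1.23 in controls). The log2 difference was 2.26 (SE 0.47, 95% interval 1.23 to 3.29, limma adjusted p = 0.686). It ranged from 1.78 without control 3 to 2.66 without control 2, with 1.99 between the 1 knockout and 3 controls that had only Y-linked signal and 2.81 between the 2 knockouts and 1 control that had only Xist signal. Both groups carried floxed alleles. Whether the deletion next to it bears on Cdo1 was not tested.

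Ap3s1, which encodes a subunit of the AP-3 trafficking complex, adjoins Atg12 on the other side, and the spans of the pair share 31 bases in the RefSeq table. It read 10.05, 10.04, 9.91 and 10.24 on knockout arrays 1 to 4, against 10.05, 10.08, 10.17 and 10.14 on control arrays 1 to 4. The groups overlapped, and the differences of its 3 features lay between -0.05 and -0.01. Tmed7 differed by 0.02 (SE 0.09) and Eif1a by 0.16 (SE 0.10), with overlapping groups. 4833403I15Rik was at or below the level of absent transcripts on all 8 arrays and Arl14epl was above it on 2 of 4 knockout and 3 of 4 control arrays. Their differences, -0.15 and -0.06, thus come from signals at or near that level.

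**Figure D4:**
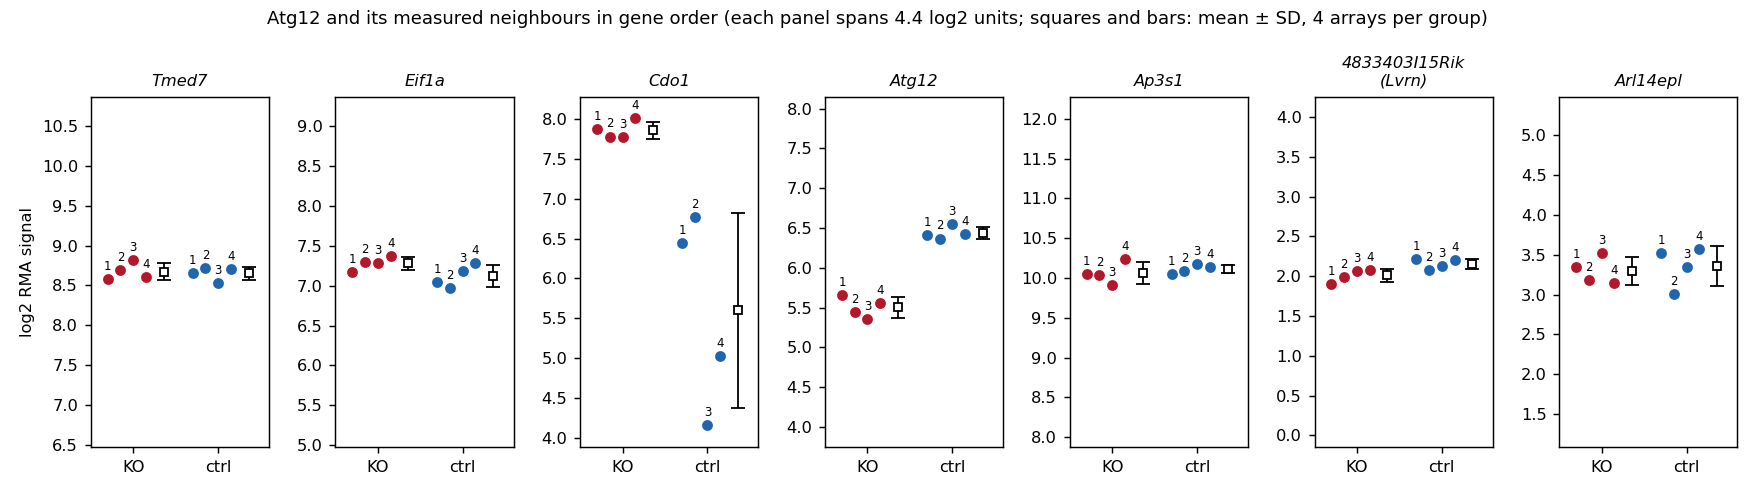
Log2 RMA signal (vertical axis, 1 panel per gene, each spanning the same number of log2 units) of Atg12 and its measured neighbours, in the order of the genes on the chromosome, on knockout (KO, red) and control (ctrl, blue) arrays, with the mean ± SD of 4 arrays as a square with bars. All knockout arrays lie below all control arrays for Atg12 and above them for Cdo1, and in the other 5 panels the groups overlap.

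The genes most like Atg12 over the 8 arrays were sought by the mean absolute difference between the gene's and Atg12's log2 signal, each taken relative to its own mean. Among 10480 genes at or above the median signal, Bpifc (0.189), Eya1 (0.200), Rbpms (0.202), Ypel2 (0.202) and Lpcat2 (0.204) came nearest. Of the conjugation system genes the nearest was Atg16l2, at 0.368, and the farthest Atg3, at 0.488. Since the search picks genes that were lower in knockouts, the values are a description without a test. Bpifc averaged 4.71 ± 0.26 in knockouts and 5.66 ± 0.38 in controls, and Eya1, a transcriptional cofactor gene, averaged 4.67 ± 0.29 in knockouts and 5.36 ± 0.17 in controls. Rbpms, an RNA-binding protein gene, averaged 5.58 ± 0.33 in knockouts and 6.20 ± 0.25 in controls. Ypel2 averaged 5.78 ± 0.25 in knockouts and 6.34 ± 0.21 in controls, and its groups overlapped at knockout 4 and control 3. Lpcat2, which encodes a lysophospholipid acyltransferase, averaged 4.54 ± 0.15 in knockouts and 5.18 ± 0.27 in controls.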

How the data were processed

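The authors deposited log2 signals, 1 per feature and array, from Affymetrix Gene ST arrays of cells sorted from 8 mice. RMA and limma are named, without versions, per the submitters' processing notes, while the genome build and the annotation of the symbols are not given in the sources used here. Both deposited tables held the same values (largest difference 0). Of 28853 features, 1494 without a symbol were left out, and the feature of highest mean was kept per symbol, which gave 24213 genes. Knockout was compared with control by limma 3.58.1 (lmFit and eBayes, R 4.3.3) over all genes, with no filter or covariate, Benjamini-Hochberg adjustment and a threshold of 0.05. The fit was tested on simulated data. The precision is limited, among other things, by the number of arrays, 4 per group. Arrays have no read depth to report. RMA hides a shift common to most genes.

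The members, lists and tests were chosen with earlier results of these data known. Named genes were the 7 members, all genes of both lists, the nearest 3 measured protein-coding genes on each side of Atg12, and the 5 genes most like Atg12, predicted models and small RNAs left out. Same-numbered knockout and control arrays had correlations of deviations from their group means of -0.10, 0.12, 0.02 and 0.03 (numbers 1 to 4), so the numbers were not taken as pairs. Alternatives were leaving out each array, a block for the replicate number, other choices of feature, a signal filter, other scalings, other eBayes settings, array weights and sex-linked covariates. Omission of knockouts 3 and 4 together was added after seeing the data.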

Additional observations from a re-analysis of the deposited data

Results flagged for a closer look

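In 5 of 62 groups of 4 arrays, 1 array lay apart from the other 3 by more than Dixon's critical value at the 95% level, and chance flags about 1 in 20 groups. Of the conjugation system genes, Atg5 was concerned, with control 4 at 5.67 and the next control at 5.44. Control 4 also stood apart for Wipi2, at 6.41 against 6.21 for the next control, and for Map1lc3a, at 4.38 against 4.68. The others were Gabarapl2 on control 1, at 6.59 against 7.08, and Atg4b on control 3, at 5.58 against 5.38.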

How the results depend on the processing

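With 4 arrays per group, the Atg12 difference kept its direction under all 21 alternatives and its call under 8. The call was lost with a replicate block (difference -0.93, adjusted p 0.227), with arrays centred on their median (-0.94, 0.0636), and with Xist (-0.97) or Y-linked signal (-0.94) as a covariate. With knockouts 3 and 4 both left out it was lost too (-0.88, adjusted p 0.499). The exact permutation p there was 0.0667, the smallest value that so few arrays can give, so that test could not pass. The call was also lost without any single array (-0.98 to -0.88). Under all these settings that lost the call, the count of members called was 0. The count over all genes was 0 too, except that without control 4 it was 3 genes, Atg12 not among them (range 0 to 3 over single omissions, and 0 to 0 for members). The causes were not tested. No other member, list gene or neighbour passed under any alternative, and the block changed no other call.

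Of 31 genes, 15 changed sign in at least 1 alternative, always uncalled. With Xist signal these were Atg3 (-0.043), Map1lc3a (0.051), Map1lc3b (-0.019), Atg4d (0.043) and Rab33b (-0.028), and with Y-linked signal Map1lc3a (0.038) and Atg4d (0.024). With knockouts 3 and 4 left out they were Atg10 (0.14), Atg16l1 (-0.00053), Tmed7 (-0.018), Gabarapl1 (0.0085), Gabarapl2 (0.037), Atg4a (0.043), Atg4c (0.097) and Rb1cc1 (0.0080). Repeated quantile normalization turned Atg5 (0.021), Map1lc3a (0.0047), Gabarapl1 (0.0099), Atg4a (0.0060) and Atg4d (0.0072), array weights turned Atg5 (0.00080), Map1lc3a (0.017) and Tmed7 (-0.0039), and the choice of feature turned Gabarapl2 (0.12 for the largest variance, 0.020 for the mean).

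Single omissions gave ranges of -0.055 to 0.055 for Atg5, -0.22 to 0.0025 for Atg10, -0.0058 to 0.11 for Atg3, -0.033 to 0.058 for Atg16l1, -0.026 to 0.053 for Tmed7, -0.18 to 0.0088 for Arl14epl, -0.091 to 0.029 for Map1lc3a, -0.018 to 0.063 for Map1lc3b, -0.069 to 0.043 for Gabarapl1, -0.21 to 0.021 for Gabarapl2, -0.092 to 0.030 for Atg4a, -0.29 to 0.032 for Atg4c, -0.039 to 0.041 for Atg4d and -0.0036 to 0.21 for Rab33b.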
